A study of Caenorhabditis elegans with 8 samples.

Results

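The mitochondrial ribosomal RNAs and the nuclear genes that copy, transcribe, process and degrade the products of mitochondrial DNA (mtDNA) were followed in whole adult Caenorhabditis elegans after knockdown of mtch-1. The set held 10 of the 20871 genes in the count table. It comprised the small rRNA (MTCE.7), the large rRNA (MTCE.33) and 8 nuclear genes, picked by gene identifier for their known roles. The set was drawn up with the mtch-1(RNAi) comparison already known, above all the higher level of both rRNAs, so the differences of its members are given as a description and not as a test. The mtch-1(RNAi) group was 4 samples of worms fed HT115 Escherichia coli making double-stranded RNA against mtch-1, which encodes a mitochondrial carrier homolog of the outer membrane. The EV group was 4 samples fed the same bacteria with the empty L4440 vector. Both groups were laid as eggs onto these plates, kept at 20 °C with ampicillin and 1 mM IPTG, and frozen at day 3 of adulthood as pools of about 200 worms. An induction step with 5 mM IPTG for 3 h at 37 °C is also given, the same for both groups. The labels name no strain, genotype or allele, and whole animals with all their tissues were extracted.

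Mitochondrial DNA of C. elegans is a small circle that carries the genes for both rRNAs of the mitochondrial ribosome, for transfer RNAs and for subunits of the respiratory chain. Its genes are transcribed by a single-subunit RNA polymerase into long precursors, in which tRNAs lie between many of the other genes and mark where the RNA is cut. Every protein that does this work is encoded in the nucleus, made in the cytosol and imported. In the adult hermaphrodite the germline is known to hold much of the animal's mtDNA.

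Total gene counts were 20626184 to 22748868 in the mtch-1(RNAi) samples and 18710833 to 23608608 in the EV samples. The targeted gene, mtch-1, stood at 34.3 to 58.0 CPM (read counts scaled to depth) in the mtch-1(RNAi) samples, against 264 to 291 CPM in the EV samples. CPM are counts per 1e6 counts, on library sizes normalised by the trimmed mean of M values (TMM). Every gene of the marker lists for germline, intestine, body wall muscle, neurons and hypodermis were detected in both groups. The 2 sperm markers matched in the table summed to 0.430 to 1.54 CPM in mtch-1(RNAi) samples and 0.708 to 1.34 CPM in EV samples. Summed over 12 germline genes, the level was 6602 to 7008 CPM in mtch-1(RNAi) samples and 7614 to 8143 CPM in EV samples, without overlap. By edgeR's quasi-likelihood test, 8 of the 12 germline genes fell and 2 rose, where 13% of all genes tested fell and 10% rose. In whole-worm RNA, fewer cells of a type and less RNA per cell cannot be told apart, and the part of the germline in the results that follow was not tested. The sums of the other lists overlapped between groups. Intestine markers summed to 39454 to 49408 CPM in mtch-1(RNAi) and 36685 to 46557 CPM in EV. Muscle markers summed to 982 to 1457 CPM in mtch-1(RNAi) and 938 to 1151 CPM in EV, and neuron markers to 309 to 336 CPM in mtch-1(RNAi) and 328 to 347 CPM in EV. Hypodermis markers summed to 657 to 805 CPM in mtch-1(RNAi) and 658 to 830.1 CPM in EV. Gene by gene, 1 of 7 muscle and 1 of 6 hypodermis genes rose and 0 fell, against 10% and 13% of all genes tested. The muscle gene was act-4. The hypodermis gene, dpy-7, was at 9.06 ± 1.84 CPM in mtch-1(RNAi) and 4.21 ± 1.05 CPM in EV (SD, n = 4), without overlap. Of the 7 intestine and 7 neuron genes, 0 were called.

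Both mitochondrial rRNAs were more abundant in every mtch-1(RNAi) sample than in any EV sample. The small rRNA, which forms the core of the small subunit of the mitochondrial ribosome, is encoded at positions 898 to 1593 of mtDNA on the plus strand of WBcel235. Its level was 87.5, 90.5, 86.4 and 99.6 CPM in mtch-1(RNAi) replicates 1 to 4, against 36.1, 35.8, 44.6 and 36.0 CPM in EV replicates 1 to 4. The groups did not overlap, and EV replicate 3 stood above the other EV samples. The means were 91.0 ± 6.02 CPM in mtch-1(RNAi) and 38.1 ± 4.33 CPM in EV (SD, n = 4), a log2 fold change of 1.26 (SE 0.08).

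The large rRNA, which carries the peptidyl transferase centre of the large subunit, lies at positions 10403 to 11354. Its level was 92.1, 76.6, 61.0 and 93.4 CPM in mtch-1(RNAi) replicates 1 to 4, against 27.7, 26.8, 32.96 and 26.1 CPM in EV replicates 1 to 4. Every mtch-1(RNAi) value exceeded every EV value, with mtch-1(RNAi) replicate 3 the lowest of its group and EV replicate 3 the highest of its own. The means were 80.8 ± 15.2 CPM in mtch-1(RNAi) and 28.4 ± 3.11 CPM in EV (SD, n = 4), and the log2 fold change was 1.51 (SE 0.12). Between same-numbered samples the log2 difference of the large rRNA was 1.73, 1.51, 0.89 and 1.84 for replicates 1 to 4. For the small rRNA these differences were 1.28, 1.34, 0.95 and 1.47. Both rRNAs thus differed least in replicate 3. Of all 13252 genes tested, 1.25% had a higher log2 fold change than the small rRNA and 0.709% a higher one than the large rRNA.

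**Figure D1:**
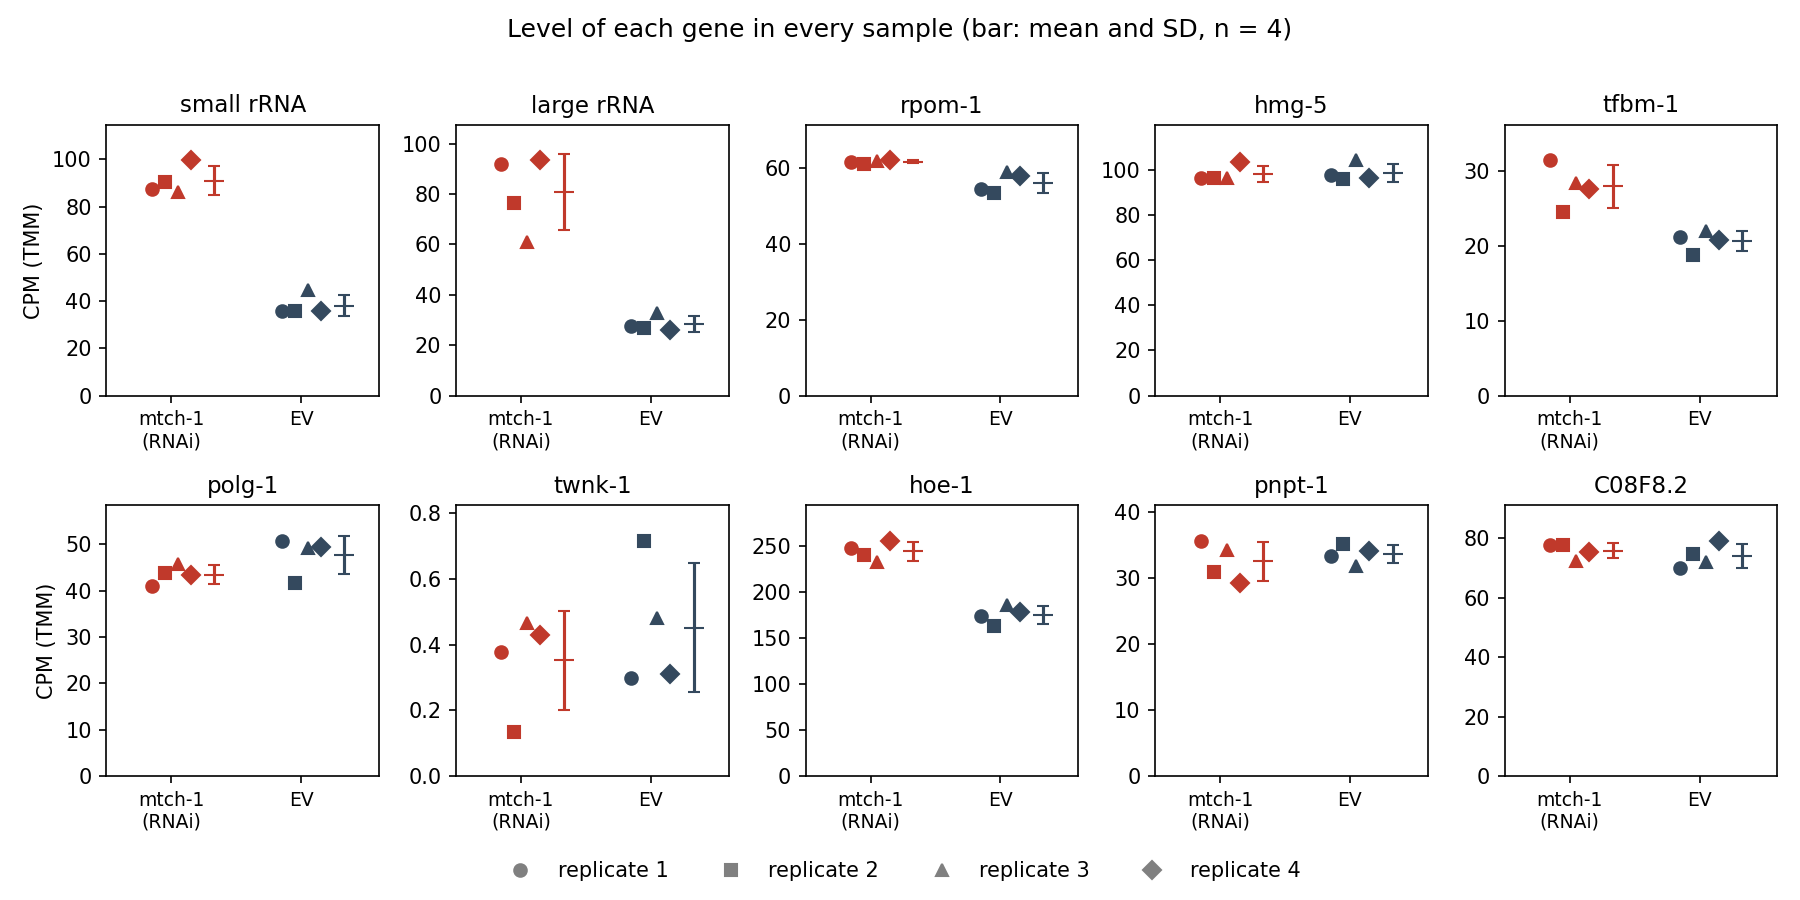
Level in CPM (y axis, from 0, a separate scale for each gene) of the 2 rRNAs and 8 nuclear genes in mtch-1(RNAi) and EV samples, with a symbol for each replicate number and a bar for the mean and SD of 4 samples. Both rRNAs, rpom-1, tfbm-1 and hoe-1 are higher in all mtch-1(RNAi) samples than in any EV sample, while hmg-5, polg-1, twnk-1, pnpt-1 and C08F8.2 overlap between groups.

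RNA classes other than mitochondrial rRNA gave the following values. Cytosolic rRNA, summed over 6 genes, was 20571 to 30378 CPM in mtch-1(RNAi) samples and 24562 to 32389 CPM in EV samples, and the ranges overlapped. The log2 fold changes of the 5 cytosolic rRNA genes tested ran from -0.27 to 0.08. Small nucleolar RNAs, which mostly lack a poly(A) tail, summed to 172 to 191 CPM in mtch-1(RNAi) samples and 193 to 201 CPM in EV samples, without overlap. A single gene, ZK858.10, accounted for the lower sum, with 36.5 ± 2.35 CPM in mtch-1(RNAi) and 54.8 ± 1.36 CPM in EV (SD, n = 4). Of the 22 small nucleolar RNA genes tested, 2 rose, 2 fell and 18 did not pass, with a median log2 fold change of 0.04. For comparison, 10% of all genes tested rose and 13% fell. Histone genes summed to 785 to 879 CPM in mtch-1(RNAi) samples and 746 to 837 CPM in EV samples, with overlap. Of the 25 histone genes tested, 0 rose, 3 fell and 22 did not pass, beside the same 10% and 13%. Their median log2 fold change was -0.16. The 9 mtDNA tRNA genes in the table had at most 3 counts in any mtch-1(RNAi) sample and at most 4 in any EV sample, too few to be tested. How RNA was selected for the libraries is not stated in the labels, and its part in the rRNA values was not tested.

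The rRNA genes sit among genes whose mRNAs moved the other way. All 36 annotated mtDNA genes lie on the plus strand. The small rRNA is separated from the tRNA gene on either side by 1 base. The large rRNA follows a tRNA gene after 1 base and ends 1 base before ND3, which encodes a subunit of respiratory complex I. ND3 was at 61.7, 48.9, 87.9 and 63.8 CPM in mtch-1(RNAi) replicates 1 to 4, against 105, 131, 138 and 151 CPM in EV replicates 1 to 4. It fell by 1.00 on the log2 scale (SE 0.15; edgeR adjusted p = 0.000632), with no overlap between groups. COX2, a cytochrome c oxidase subunit gene that precedes the large rRNA with a single tRNA gene between, was at 623 to 734 CPM in mtch-1(RNAi) samples, against 1003 to 1170 CPM in EV samples. Next to the small rRNA on its 3′ side, beyond 3 tRNA genes, ND1 was at 220.4 to 293 CPM in mtch-1(RNAi) samples, against 437 to 497 CPM in EV samples.

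All 11 tested mRNAs of mtDNA fell, with log2 fold changes from -1.18 to -0.52 and a median of -0.79, while the median over all 13252 genes was 0.01. Of those genes, 13% were called lower, and in 14.2% the groups did not overlap with mtch-1(RNAi) lower. The groups overlapped in 1 of the 11, ND2, which ranged from 18.1 to 32.9 CPM in mtch-1(RNAi) and from 32.2 to 78.8 CPM in EV. ND4L, the twelfth mRNA, had 0 to 11 counts in mtch-1(RNAi) samples and 4 to 9 in EV samples, too few to be tested. Pairs of neighbouring mRNA genes such as ND1 and ATP6, or ND3 and ND5, overlap by a few bases at most in the annotation. Reads spanning such a border may be lost or shared, depending on counting settings that the labels do not state.

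**Figure D2:**
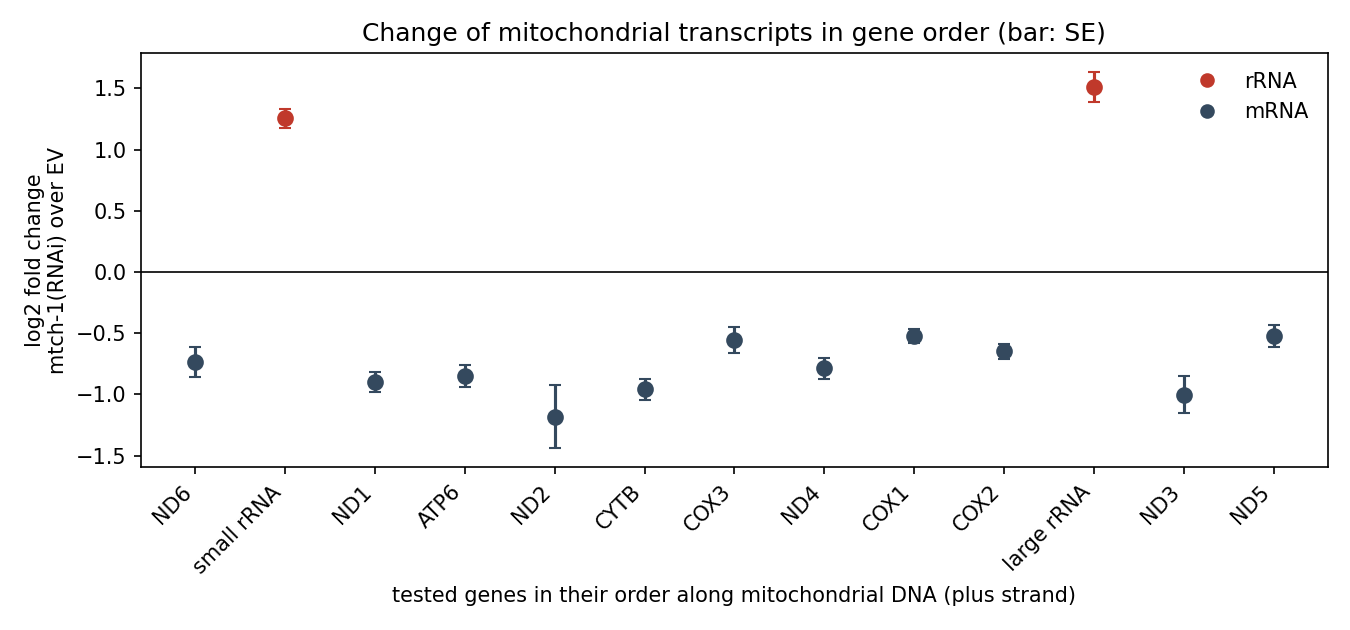
Log2 fold change of mtch-1(RNAi) over EV (y axis, bar for the standard error, n = 4 per group) for the 13 tested mtDNA transcripts in gene order on the plus strand (x axis, equal spacing). The small rRNA at 1.26 and the large rRNA at 1.51 stand above 0, and every tested mRNA, from -1.18 for ND2 to -0.52 for COX1 and ND5, stands below it.

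Set against the mRNAs of the same genome, the rRNA level differed more than in CPM. The summed rRNA level, per kilobase of gene length, was 4.94%, 4.34%, 3.28% and 5.09% of the summed mRNA level per kilobase in mtch-1(RNAi) replicates 1 to 4. In EV replicates 1 to 4 it was 1.07%, 1.00%, 1.10% and 0.956%. The mean was 4.41% ± 0.823 in mtch-1(RNAi) and 1.03% ± 0.0660 in EV (SD, n = 4), a 4.27-fold higher share in mtch-1(RNAi) with no overlap. Replicate 3 of mtch-1(RNAi) had the lowest share of its group, the lowest large rRNA and the highest summed mRNA, 5333 CPM, where replicates 1, 2 and 4 had 4216 to 4581 CPM. Single mRNAs were less abundant than the rRNAs in places. ND2 averaged 29.3 and ND6 45.4 CPM per kilobase in mtch-1(RNAi), below both rRNAs, and 66.5 and 75.7 in EV, above both. ND4L, with too few counts to be tested, lay below both rRNAs in each group, at 1.24 in mtch-1(RNAi) and 1.59 in EV.

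The balance between the rRNAs overlapped between groups. Per kilobase, the level of the large rRNA was 0.769, 0.619, 0.517 and 0.685 times that of the small rRNA in mtch-1(RNAi) replicates 1 to 4, against 0.561, 0.547, 0.540 and 0.530 times in EV replicates 1 to 4. The ratio averaged 0.648 ± 0.107 in mtch-1(RNAi) and 0.545 ± 0.0133 in EV (SD, n = 4). The EV samples lay close together, the mtch-1(RNAi) samples spread widely, and the groups overlapped because mtch-1(RNAi) replicate 3 had the lowest ratio of all 8 samples. Against ND3, its immediate neighbour, the large rRNA per kilobase was 0.526, 0.554, 0.245 and 0.516 times as abundant in mtch-1(RNAi) replicates 1 to 4, and 0.0609 to 0.0931 times as abundant in EV samples.

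**Figure D3:**
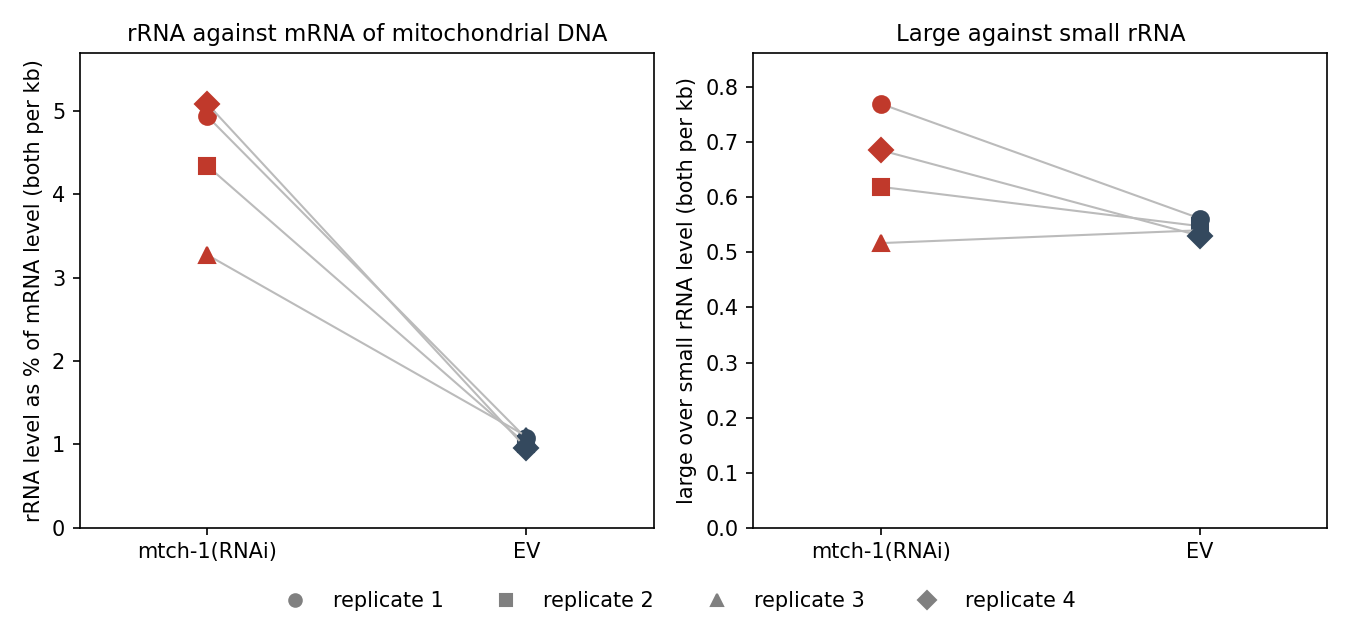
Left, summed level of both rRNAs as a percentage of the summed level of the mtDNA mRNAs, both per kilobase (y axis from 0), with a symbol for each replicate number and a line between same-numbered samples. The 4 mtch-1(RNAi) samples lie at 3.28% to 5.09%, all above the EV samples at 0.956% to 1.10%. Right, the ratio of large to small rRNA per kilobase, where mtch-1(RNAi) samples spread from 0.517 to 0.769 around the tight EV range of 0.530 to 0.561.

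Among the transcription genes, tfbm-1 was higher in all mtch-1(RNAi) samples, rpom-1 was slightly higher and hmg-5 differed little. rpom-1 (Y105E8A.23, chromosome I, 14552030 to 14565853, minus strand) encodes the mitochondrial RNA polymerase. It was at 61.5, 61.0, 61.8 and 62.0 CPM in mtch-1(RNAi) replicates 1 to 4, against 54.5, 53.4, 58.9 and 57.8 CPM in EV replicates 1 to 4. The mtch-1(RNAi) samples lay close together, with a coefficient of variation of 0.685%, and all lay above the EV samples. At 1298 to 1462 counts per mtch-1(RNAi) sample, counting error alone would give a wider spread, so nothing is read from this closeness. The log2 fold change was 0.13 (SE 0.05), short of the threshold of the whole-table test. hmg-5 (F45E4.9, chromosome IV, 7644895 to 7646219, minus strand) encodes the relative of the mammalian factor TFAM, which packages mtDNA and takes part in transcription. It was at 96.5, 96.2, 96.4 and 103.6 CPM in mtch-1(RNAi) replicates 1 to 4, against 97.8, 95.7, 104.2 and 96.1 CPM in EV replicates 1 to 4. These values overlapped almost fully, and the mean was 98.2 ± 3.62 CPM in mtch-1(RNAi) and 98.5 ± 3.92 CPM in EV (SD, n = 4). The SE of its log2 fold change was 0.04 around a value of -0.0040.

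tfbm-1 (T03F1.7, chromosome I, 3854161 to 3859292, minus strand) is related to the mammalian B factors, of which TFB2M acts in the start of transcription and TFB1M methylates the small rRNA. It was at 31.4, 24.4, 28.4 and 27.6 CPM in mtch-1(RNAi) replicates 1 to 4, against 21.2, 18.7, 21.9 and 20.7 CPM in EV replicates 1 to 4. The lowest mtch-1(RNAi) value, in replicate 2, lay above the highest EV value, and replicate 2 was also the lowest EV sample. The log2 fold change was 0.44 (SE 0.09). The antisense gene T03F1.11 shares 73 exonic bases with tfbm-1. It was at 3.22 ± 0.727 CPM in mtch-1(RNAi) and 2.50 ± 0.624 CPM in EV (SD, n = 4), and without known strandedness reads in the shared bases cannot be told apart.

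The replication genes overlapped between groups. polg-1 (Y57A10A.15, chromosome II, 12189789 to 12199962, minus strand) encodes the mtDNA polymerase gamma. It was at 41.0, 43.8, 45.8 and 43.3 CPM in mtch-1(RNAi) replicates 1 to 4, against 50.85, 41.8, 49.3 and 49.4 CPM in EV replicates 1 to 4. EV replicates 1, 3 and 4 lay above all mtch-1(RNAi) samples, and EV replicate 2 lay below 3 of them. The log2 fold change was -0.14 (SE 0.07). Without EV replicate 2 it was -0.19 and only just passed the whole-table threshold (edgeR adjusted p = 0.04999). twnk-1 (F46G11.1, chromosome X, 5791215 to 5797343, plus strand), the gene of the replicative helicase Twinkle, was near the limit of detection. It had 9, 3, 10 and 9 counts in mtch-1(RNAi) replicates 1 to 4, and 6, 13, 9 and 7 counts in EV replicates 1 to 4. Pooled over 4 samples this was 0.349 CPM in mtch-1(RNAi) (exact 95% Poisson interval 0.237 to 0.496) and 0.440 CPM in EV (0.306 to 0.611), intervals that cover counting error only. At its 3′ end twnk-1 shares 25 exonic bases with F46G11.4 on the opposite strand. The count filter removed twnk-1, and a difference was not detectable at this depth.

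The RNA processing gene hoe-1 was higher in all mtch-1(RNAi) samples. hoe-1 (E04A4.4, chromosome IV, 4739490 to 4744267, minus strand) encodes RNase Z, the relative of mammalian ELAC2, which cuts the 3′ ends of tRNA precursors in both the nucleus and mitochondria. It was at 247.7, 239.9, 232.5 and 255.8 CPM in mtch-1(RNAi) replicates 1 to 4, against 173.7, 162.9, 185.3 and 177.6 CPM in EV replicates 1 to 4. The groups were far apart, and all 4 same-numbered pairs differed upward, by 0.33 to 0.56 on the log2 scale. The log2 fold change was 0.48 (SE 0.05). Replicate 3 gave the smallest of these pair differences, as it did for both rRNAs and tfbm-1.

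The RNA decay genes overlapped between groups. pnpt-1 (BE0003N10.1, chromosome III, 1037492 to 1046275, plus strand) encodes polynucleotide phosphorylase, a 3′ to 5′ exonuclease that in human mitochondria works with the helicase SUV3. It was at 35.7, 30.9, 34.2 and 29.3 CPM in mtch-1(RNAi) replicates 1 to 4, against 33.4, 35.2, 31.9 and 34.2 CPM in EV replicates 1 to 4. The mtch-1(RNAi) samples ranged wider than the EV samples on both sides, and the log2 fold change was -0.05 (SE 0.08). It shares 15 exonic bases with fbxo-11.2 on the opposite strand, which averaged 6.09 ± 0.699 CPM in mtch-1(RNAi) and 3.79 ± 0.328 CPM in EV (SD, n = 4). C08F8.2 (chromosome IV, 11150997 to 11154334, plus strand) is the SUV3-related helicase gene. It was at 77.8, 77.9, 72.5 and 75.6 CPM in mtch-1(RNAi) replicates 1 to 4, against 70.0, 74.85, 72.1 and 79.3 CPM in EV replicates 1 to 4. The EV samples reached both lower and higher than the mtch-1(RNAi) samples, and the log2 fold change was 0.04 (SE 0.05). In the count table the span of C08F8.2 begins 1808 bases before the annotated start and takes in pfd-1, a gene on the same strand that rose by 0.49 on the log2 scale (edgeR adjusted p = 0.000117). The span also reaches F01G4.6 on the opposite strand, a more abundant gene that fell to 887 ± 21.1 CPM in mtch-1(RNAi), against 1050 ± 32.0 CPM in EV (SD, n = 4; edgeR adjusted p = 0.00227). Whether reads of either gene entered the C08F8.2 value was not tested.

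Of the 10 members, 9 passed the count filter, and 4 of these 9 were past an adjusted p of 0.05 in the fit over all genes, all of them higher in mtch-1(RNAi). They were the small rRNA, the large rRNA, tfbm-1 and hoe-1. Over all genes tested 23% were past that threshold, 10% as higher and 13% as lower. In 5 members the groups did not overlap, the same 4 and rpom-1, against 25.8% of all genes tested, 11.7% as higher and 14.2% as lower. Since this comparison was known when the set was drawn up, nothing is read from these counts. The authors' deposited adjusted p, which rests on the same counts, is below 0.05 for the same 4 of the 10 members. The share over all genes of that table was not computed here, so nothing is read from this count either.

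Levels per length, in CPM per kilobase, set the members in a different order in each group. In mtch-1(RNAi) samples the small rRNA (124 to 143) and hmg-5 (118 to 127) led with overlapping ranges, followed by hoe-1 (86.0 to 94.6) and the large rRNA (64.1 to 98.1), which overlapped each other. In EV samples hmg-5 led alone (117 to 128), followed by hoe-1 (60.3 to 68.5) and the small rRNA (51.4 to 64.1), whose ranges overlapped, and by C08F8.2 (28.4 to 32.2) and the large rRNA (27.4 to 34.6), which also overlapped. C08F8.2 lay at 29.5 to 31.6 in mtch-1(RNAi) samples and tfbm-1 at 20.5 to 26.4 there, each apart from its neighbours in the order. The polymerase genes and pnpt-1 were the least abundant members above the filter. In mtch-1(RNAi) samples rpom-1 was at 17.1 to 17.4, polg-1 at 12.7 to 14.2 and pnpt-1 at 12.01 to 14.6, so that polg-1 and pnpt-1 overlapped. In EV samples tfbm-1 (15.7 to 18.4), rpom-1 (14.98 to 16.5), polg-1 (12.97 to 15.8) and pnpt-1 (13.1 to 14.4) each overlapped the next in order. twnk-1 was at 0.0633 to 0.222 in mtch-1(RNAi) samples and 0.141 to 0.341 in EV samples.

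**Figure D4:**
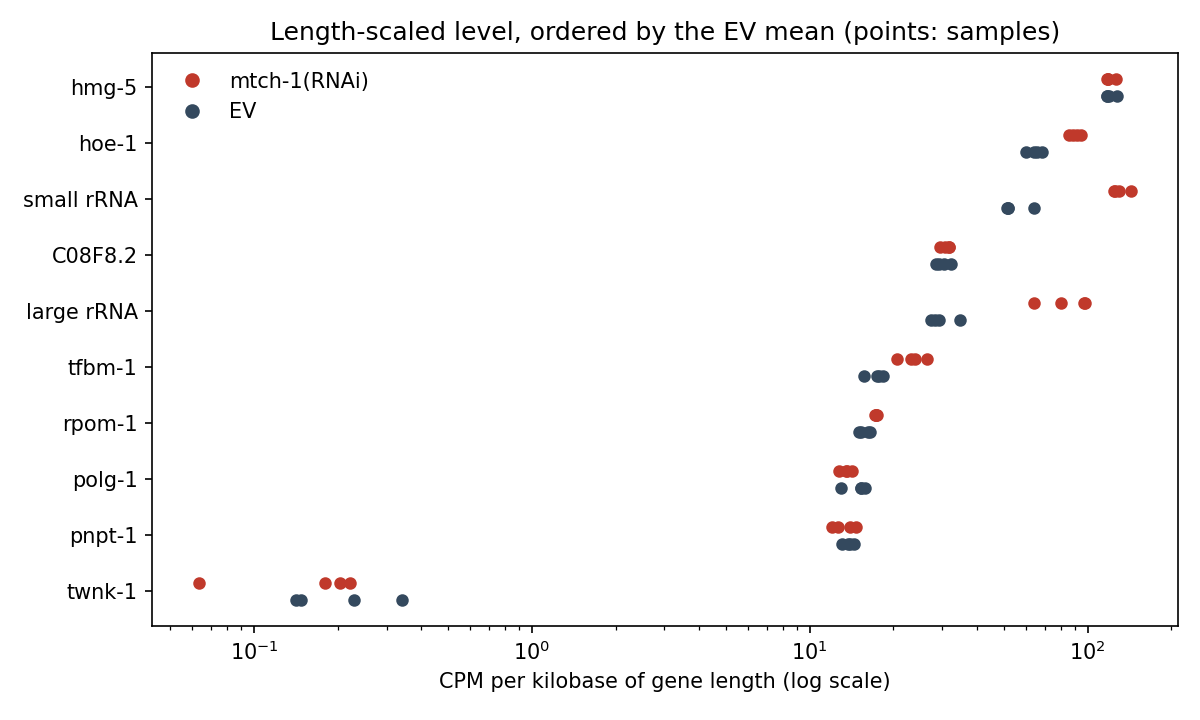
Level in CPM per kilobase of gene length (x axis, log scale) of each member in 4 mtch-1(RNAi) samples (upper points of each row) and 4 EV samples (lower points), ordered by the EV mean. In mtch-1(RNAi) samples the small rRNA lies above hoe-1 and overlaps hmg-5, and the large rRNA lies above C08F8.2. In EV samples the small rRNA overlaps hoe-1 and lies below hmg-5, and the large rRNA overlaps C08F8.2. twnk-1 stays far below all others in both groups.

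Variation between samples of a group differed among members. The coefficient of variation in mtch-1(RNAi) samples ran from 0.685% for rpom-1 to 18.8% for the large rRNA among the 9 tested members, against a median of 10.3% over all tested genes in each group. In EV samples it ran from 3.98% for hmg-5 to 11.4% for the small rRNA. The 2 rRNAs were thus the most variable tested members in EV, and the large rRNA the most variable in mtch-1(RNAi). The nuclear members share no neighbourhood: 3 lie on chromosome IV, 2 on chromosome I and 1 each on II, III and X.

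The genes most like the mean log2 CPM of both rRNAs were sought among 5731 genes outside the set that have a symbol and averaged 5 CPM or more. Over the 8 samples these were rskn-2 (Pearson r = 0.994), pdfr-1 (0.993), pno-1 (0.992), ldh-1 (0.991) and slrp-1 (0.989), measures that rest mostly on the distance between the groups. Of these, ldh-1 encodes lactate dehydrogenase. The set's own hoe-1, left out of this search, had r = 0.987 with the small rRNA and 0.985 with the large rRNA, which rest on the same distance. With each group mean subtracted, its r was 0.757 and 0.762. By that measure hmg-5 had the highest r of the tested members with the small rRNA, 0.942, and 0.668 with the large rRNA. After the mean of each group was subtracted, the most alike of the genes searched were pps-1 (0.970), fkb-3 (0.940), cap-2 (0.939), eng-1 (0.938) and srp-6 (0.922). They are the highest of 5731 genes compared over only 8 samples, and how high r would run by chance was not tested. The 2 rankings shared no gene among their first 5.

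The proteins that join the rRNAs in the mitochondrial ribosome included genes that rose and genes that fell. Over all genes tested, 10% rose and 13% fell. Of the 30 small subunit genes tested, 9 rose, 3 fell and 18 did not pass, with a median log2 fold change of 0.06. mrps-11 rose to 92.6 ± 2.95 CPM in mtch-1(RNAi), against 66.4 ± 2.10 CPM in EV (SD, n = 4; edgeR adjusted p = 2.6e-05). mrps-2 rose by 0.38 and mrps-22 fell by 0.53 on the log2 scale (edgeR adjusted p = 0.000129 and 0.000287). Of the 41 large subunit genes tested, 7 rose, 3 fell and 31 did not pass, with a median of 0.02. mrpl-9 rose to 102 ± 9.63 CPM in mtch-1(RNAi), against 63.5 ± 2.65 CPM in EV (SD, n = 4; edgeR adjusted p = 3.28e-05). mrpl-50 rose to 93.5 ± 9.33 CPM in mtch-1(RNAi), against 60.8 ± 3.09 CPM in EV, and mrpl-47 to 66.2 ± 3.84 CPM in mtch-1(RNAi), against 46.7 ± 2.90 CPM in EV (SD, n = 4).

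Of 4 genes for mitochondrial translation factors, 3 rose, against 10% of all genes tested, with a median log2 fold change of 0.28. gfm-1, the gene of elongation factor G, rose to 171 ± 10.4 CPM in mtch-1(RNAi), against 106.6 ± 5.37 CPM in EV (SD, n = 4; log2 fold change 0.69, edgeR adjusted p = 8.13e-06). tsfm-1, the gene of elongation factor Ts, rose by 0.33 and the EF-Tu gene tufm-2 by 0.23 on the log2 scale. The far more abundant EF-Tu gene tufm-1 was at 329 ± 16.9 CPM in mtch-1(RNAi) and 316 ± 13.3 CPM in EV, and did not pass (edgeR adjusted p = 0.428). Of 12 aminoacyl-tRNA synthetase genes for mitochondria, 3 rose and 1 fell, against 10% and 13% of all genes tested, with a median of -0.0064. The phenylalanyl enzyme gene fars-2 (0.33) and the asparaginyl enzyme gene nars-2 (0.19) were among those that rose, and the aspartyl enzyme gene dars-2 (-0.32) was the gene that fell.

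Among 9 further factors of mtDNA and its RNA, 3 rose, against 10% of all genes tested, with a median log2 fold change of 0.12. atfs-1, the transcription factor gene of the mitochondrial stress response, rose by 0.59 (SE 0.05; edgeR adjusted p = 1.34e-05). cps-6, the gene of a mitochondrial endonuclease G, rose to 69.5 ± 5.77 CPM in mtch-1(RNAi), against 48.4 ± 4.50 CPM in EV (SD, n = 4; edgeR adjusted p = 0.000604). mtcu-1, which acts in uridine modification of mitochondrial tRNA, rose to 27.7 ± 1.75 CPM in mtch-1(RNAi), against 20.4 ± 1.44 CPM in EV (SD, n = 4; edgeR adjusted p = 0.00221).

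**Figure D5:**
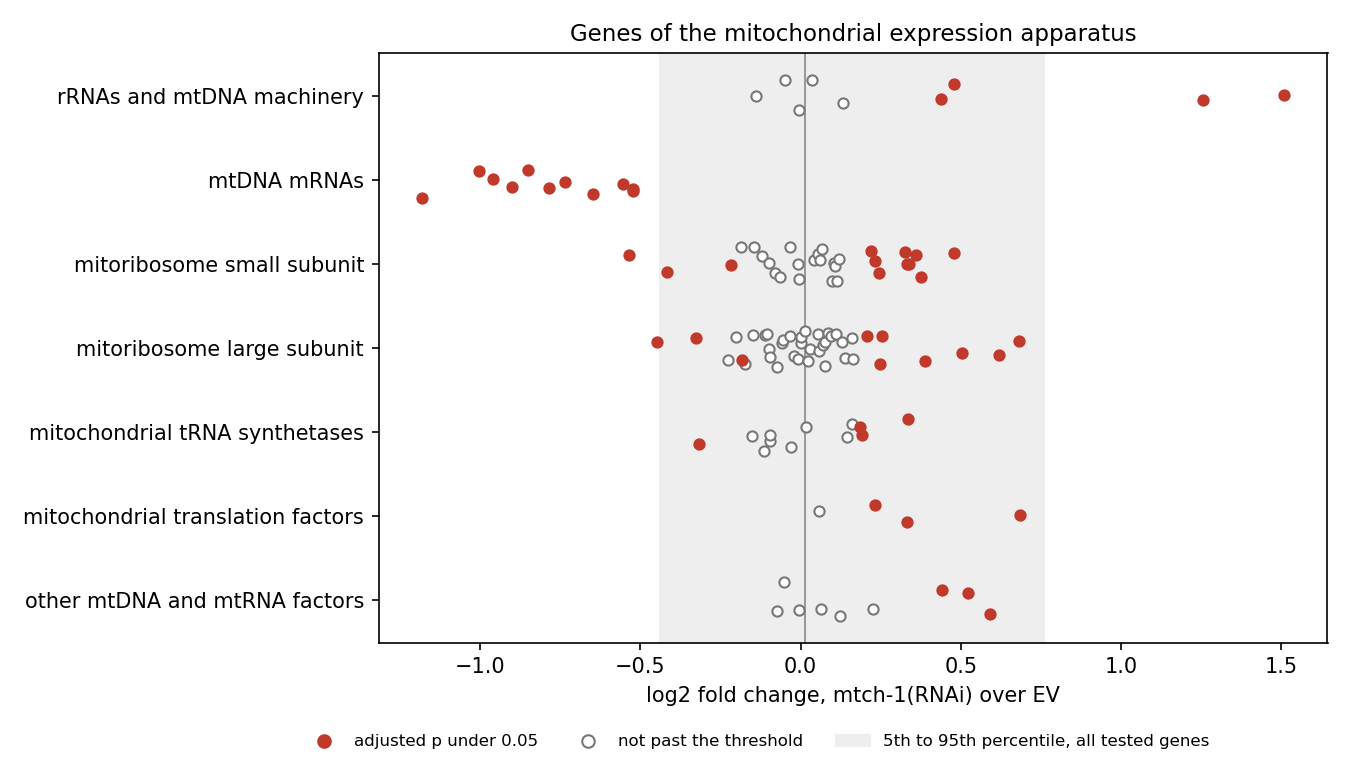
Log2 fold change of mtch-1(RNAi) over EV (x axis) for each tested gene of the set and of the lists of mtDNA mRNAs, ribosomal proteins, tRNA synthetases, translation factors and further factors, with filled points past an adjusted p of 0.05 and a shaded band from the 5th to the 95th percentile of all tested genes (-0.44 to 0.76). The rRNAs lie right of the band and the mRNAs left of it, while most nuclear genes lie within it.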

How the data were processed

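RNA sequencing of 8 samples was used as a single gene table. The submitters' processing notes name the build WBcel235 and the tools DESeq2, featureCounts 1.5.0-p3 and HISAT2 2.0.5. Their settings, the strandedness and the RNA selection were not given in the sources used here. The table deposited by the authors holds, per the file headers, raw counts, a size-factor signal, FPKM, and log2 fold changes with p-values and adjusted p-values. Tests and levels here used the counts. Gene symbols and coordinates came from the Ensembl annotation of WBcel235, which matched 20593 of 20871 genes. Symbols of the mtDNA mRNAs and those lacking there came from RefSeq.

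Counts were fitted over all genes with edgeR 4.0.16 in R 4.3.3 (quasi-likelihood F test, TMM, filterByExpr), with Benjamini-Hochberg adjustment over 13252 genes and a call at an adjusted p under 0.05. DESeq2 1.42.0 was an alternative. The script was tested on simulated data. CPM use TMM library sizes. SE values are the absolute log2 fold change over the root of F. The labels do not say that samples were separate cultures; p-values then reflect the spread among these samples alone, which may be technical. Same-numbered samples deviated together (correlations 0.342, 0.205, 0.242 and 0.185 for replicates 1 to 4, all over 0.1). The numbers may thus pair the samples, but what same-numbered samples had in common is not known. The main fit, which gave the SE values, adjusted p-values and shares of genes called in the Results, had no replicate term. A fit with the replicate number as a block was run as an alternative, and it called more genes. The members and lists were chosen with earlier results of these data known. Genes named are mtch-1, all members, any tested mtDNA mRNA and the genes most like the rRNAs by correlation in these data. Each other list gave up to 3 called genes with the lowest adjusted p. Exceptions chosen after values were seen are ND4L, ZK858.10, tufm-1, pfd-1, F01G4.6, F46G11.4, fbxo-11.2 and T03F1.11. No column was left without a sample. wars-2, mrpp-3 and 4 sperm genes of the lists found no match by symbol. The counts of small nucleolar RNA and histone genes were added after seeing the data.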

Additional observations from a re-analysis of the deposited data

Results flagged for a closer look

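Of 46 sets of 4 samples examined (each member, the tested mtDNA mRNAs and both ratios, in each group), 4 held a sample far from the other 3, where chance gives about 1 in 20. The small rRNA was at 44.6 CPM in EV replicate 3, against 35.8 to 36.1 CPM in the other EV samples. hmg-5 was at 103.6 CPM in mtch-1(RNAi) replicate 4, where replicates 1 to 3 had 96.2 to 96.5 CPM. polg-1 was at 41.8 CPM in EV replicate 2, against 49.3 to 50.85 CPM in the other EV samples. ATP6, an ATP synthase subunit gene of mtDNA, was at 646.5 CPM in mtch-1(RNAi) replicate 3, where replicates 1, 2 and 4 had 484 to 503 CPM.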

How the results depend on the processing

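The small rRNA stayed between 1.22 and 1.34 and the large rRNA between 1.44 and 1.62 (log2 fold change) over 13 alternatives, and the 4 called members were called in each. Without EV replicate 2, polg-1 was only just called lower (-0.19, edgeR adjusted p = 0.04999), so leaving out single samples gave 0 to 1 members called lower. hmg-5, never called, turned to 0.0027 with no count filter and 0.0041 with the stricter one, and ran from -0.022 to 0.022 when single samples were left out. pnpt-1, also never called, ran from -0.098 to 0.0052, the last without mtch-1(RNAi) replicate 4. Without division by length, rRNA was 3.75% of mRNA in mtch-1(RNAi) and 0.885% in EV, a 4.23-fold higher share, against 4.27-fold per length. The ratio of large to small rRNA was then 0.886 in mtch-1(RNAi) and 0.745 in EV. Length sets the size of these percentages and ratios by construction. With the replicate block, 1983 genes were called higher and 2264 lower, against 1325 and 1728 without it, and it changed no call of a member. In the lists it gave 4 synthetase genes and 4 further factors higher (3 each without it) and 8 mitoribosomal genes lower (6 without it). Depth limits twnk-1, ND4L and the mtDNA tRNAs.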
